A study of Mus musculus with 8 samples.

Results

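DNA methylation in mouse liver was described over 34 genes that lymphocytes use, among 14549 protein-coding genes whose whole span could be tested. The members were listed by gene name. They fell into 13 T cell genes, 3 B cell genes, 5 genes of cytotoxic cells, 6 receptors of the SLAM family and 7 genes shared by many leukocytes. For each gene the levels of all listed CpG cytosines inside its RefSeq span were averaged, and the same was done for each of its 2 ends, reaching 1000 bases beyond the gene and 500 into it. Whole-genome bisulfite sequencing had been run on livers of male C57BL/6J mice, an inbred laboratory strain, all of wild-type genotype. They were bought at 8 weeks of age and kept for 28 weeks on a normal diet (ND) or on a diet rich in fat, cholesterol and fructose (NASH, for nonalcoholic steatohepatitis), and each group had 4 libraries. The ND libraries are titled WT. Titles and treatment labels contradict each other (a WT title comes with NASH as treatment, and a NASH title with WT), titles were followed, and all directions below would swap if the treatment labels were right. Separate mice are not stated for the libraries, and the p-values therefore measure library spread, which may be technical.

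In bisulfite sequencing an unmethylated cytosine is read as thymine, and the percentage of unconverted reads is the methylation level of that cytosine. Mammalian promoters dense in CpG (a C followed by a G) are usually unmethylated in every tissue, whereas CpG-poor promoters of lineage genes are often methylated in cells that do not use them. Most cells of the liver are hepatocytes, and lymphocytes are one of several minor populations, so whole liver is no pure lymphocyte sample: a changed share of a cell type and a changed level within cells cannot be told apart. T cell genes here encode the antigen receptor's signalling chain Cd247, its kinases Lck and Zap70, co-receptors and costimulators such as Cd2, Cd5, Cd6, Cd28, Ctla4 and Icos, the cytokine receptor chains Il7r and Il2ra, and the nuclear factors Tcf7 and Satb1. Cd79b is a chain of the B cell receptor complex, Ms4a1 encodes CD20, and Pax5 is the factor that holds B cell identity. Perforin (Prf1), the granzymes Gzma and Gzmb and Fas ligand (Fasl) are the killing machinery of cytotoxic T and natural killer cells, and Il2rb is a chain of the interleukin 2 receptor.

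Promoter sequences are shown for the called members with an entry in the RefSeq promoter table (GRCm38.p6) and for the members with the lowest and the highest level at their start. The table held 23 of the 34 members. Each sequence runs 5′ to 3′ from 250 bases before to 50 bases after a transcript start, and the capitals mark its CG dinucleotides, the sites that can carry the methylation measured here. Prf1 (chr10:61297586-61297885, plus strand), the gene whose span was higher in NASH, had 5 CG.
Prf1: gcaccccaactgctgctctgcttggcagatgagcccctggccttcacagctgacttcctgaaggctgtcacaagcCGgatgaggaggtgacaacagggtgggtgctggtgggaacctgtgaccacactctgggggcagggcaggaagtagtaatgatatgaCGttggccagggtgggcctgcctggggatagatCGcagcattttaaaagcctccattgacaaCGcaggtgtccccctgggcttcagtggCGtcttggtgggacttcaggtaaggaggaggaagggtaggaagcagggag
Tcf7 (chr11:52282965-52283264, minus strand), a CpG-dense start with 45 CG, lay in a gene whose span was lower in NASH. The Tcf7 transcript start used lay 369 bases inside the gene, so this sequence need not be that of the gene's outer start.
Tcf7: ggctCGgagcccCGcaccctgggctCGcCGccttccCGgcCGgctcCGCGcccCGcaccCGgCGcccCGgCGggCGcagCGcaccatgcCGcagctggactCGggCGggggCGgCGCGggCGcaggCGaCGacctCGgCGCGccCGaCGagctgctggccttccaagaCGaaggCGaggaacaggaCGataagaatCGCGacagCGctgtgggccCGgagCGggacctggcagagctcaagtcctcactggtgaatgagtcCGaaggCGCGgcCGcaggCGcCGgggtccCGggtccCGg
Satb1 (chr17:51833241-51833540, minus strand) had the lowest start end, with 8 CG.
Satb1: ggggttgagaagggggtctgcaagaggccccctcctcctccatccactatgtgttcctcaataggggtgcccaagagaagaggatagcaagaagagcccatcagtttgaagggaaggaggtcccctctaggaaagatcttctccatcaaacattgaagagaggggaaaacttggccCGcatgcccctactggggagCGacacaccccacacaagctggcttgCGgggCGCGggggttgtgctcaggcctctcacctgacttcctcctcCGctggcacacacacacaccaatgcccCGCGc
Fasl (chr1:161788446-161788745, minus strand) had the highest start end, with 7 CG.
Fasl: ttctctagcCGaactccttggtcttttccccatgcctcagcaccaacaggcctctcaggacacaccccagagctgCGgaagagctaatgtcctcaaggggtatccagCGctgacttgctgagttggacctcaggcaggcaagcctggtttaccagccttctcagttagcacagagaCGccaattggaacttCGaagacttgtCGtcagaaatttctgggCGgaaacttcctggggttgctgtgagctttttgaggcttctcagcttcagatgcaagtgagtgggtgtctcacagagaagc

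The member promoters were CpG-poor. Their median was 5 CG in 300 bases, from 1 to 52, against a median of 15 over the 11638 promoters of tested genes, and 13 of the 23 had 5 or fewer. Only Pax5, Tcf7 and Ikzf1 had more than 15. The run AGGAAG, the core of many ETS-family sites, occurred on either strand in 17 of 23 member promoters and in 33.1% of all promoters, and TGTGGT, a RUNX-type core, in 8 of 23 and 14.4%. Neither run of letters contains the other, and a match is a description of the letters only.

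Most promoters were either low or high. Of the 20 promoters with at least 3 CG, 6 lay under 20% methylation on average over the 8 libraries (Tcf7, Ikzf1, Satb1, Pax5, Ctla4 and Slamf1) and 12 lay over 60%. Ctla4 was at 62.5% in ND 2, 50% in NASH 2 and 0 to 6.25% in the other libraries, so its mean does not show a low start. The highest was Il2ra at 85.1%. CG number and level were negatively related across these genes (Pearson r = -0.675, Spearman rho = -0.589, n = 20 genes of the same libraries). Some genes departed from this: Slamf1, a self-ligand receptor of lymphocytes, stood at 16.6% with 4 CG and Zap70 at 72.2% with 8. Over all 9679 promoters with at least 3 CG and 6 listed positions, 78.0% lay under 20% and 13.9% over 60%. For 4 of the 20 member promoters the transcript start used lay over 500 bases inside the gene. The distance was 8729 bases for Cd247, 4038 for Slamf7, 963 for Ikzf1 and 747 for Cd48. Their levels and CG numbers therefore need not be those of the gene's outer start. The Cd247 promoter, with 3 CG, stood at 79.8%, but a tile of 56 positions at the gene's outer start (chr1:165780001-165781000) stood at 4.61%.

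**Figure D1:**
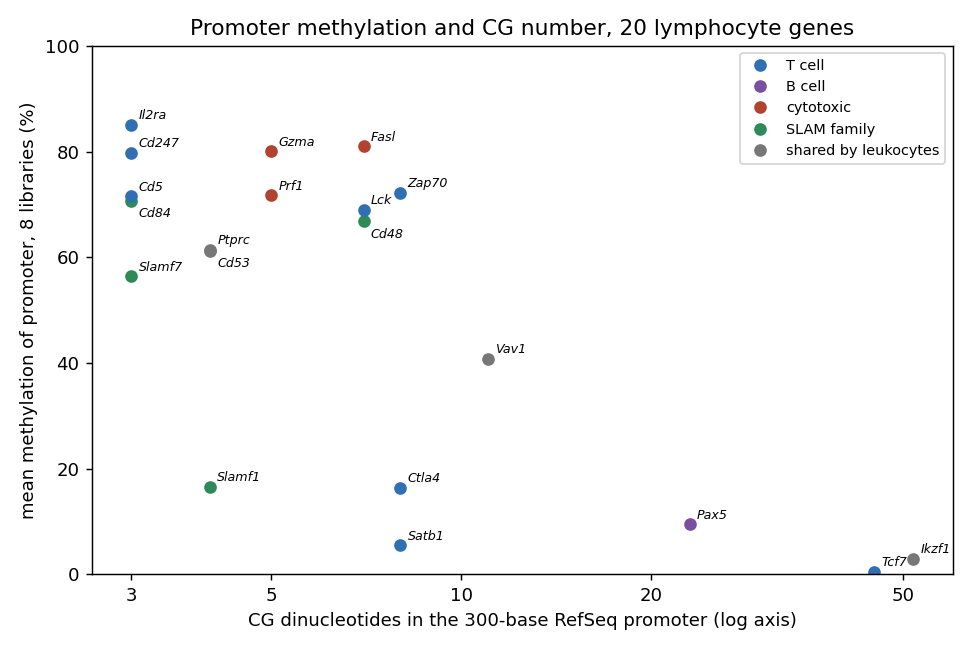
Mean methylation over the 8 libraries (vertical axis, percent) of the 300-base promoter of 20 lymphocyte genes against its number of CG dinucleotides (horizontal log axis), coloured by gene group. Pax5, Tcf7 and Ikzf1 lie at the lower right, and 12 genes lie over 60%.

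Between the diets, 18 of the 20 promoters had a lower mean in NASH, with a median difference of -6.24 percentage points, where 52.5% of all promoters were lower and their median was -0.08. Among promoters over 60%, 11 of 12 members and 60.5% of all 1344 were lower. These windows were not tested and rest on few positions. For Fasl the promoter read 85.3%, 84.1%, 86.2% and 92.2% in the ND libraries and 67.5%, 70.6%, 77.9% and 84.0% in the NASH libraries, so the groups stood just apart. Its CG at base -143 from the start, chosen after its values were seen, stood at 80.4% ± 6.59 in ND and at 59.0% ± 11.1 in NASH (SD, n = 4 each, as for every ± below). That was the largest difference of the 7 CG, at -21.36 points, and the others differed by -2.69 to -17.71 points. The Prf1 promoter overlapped between groups, at 67.6% to 91.3% in ND and 45.1% to 88.0% in NASH. Tcf7 stood between 0 and 1.67% in all 8 libraries. Satb1 was at 0 to 3.13% in 7 libraries and at 37.5% in NASH 4, where 6 of its 8 CG read 50% as the mean of the strands.

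Over gene spans the members leaned to lower methylation in NASH. The NASH mean was lower for 29 of 34 members, with a median difference of -1.34 points, where 58.3% of all 14549 spans were lower and the median was -0.26. The share of lower spans was about as high in some lists of other liver cell types, at 12 of 14 macrophage genes (85.7%), 11 of 13 stellate cell genes (84.6%) and 10 of 12 neutrophil genes, beside 85.3% of the members. It was smaller in endothelial and in cholangiocyte genes, at 6 of 9 each (66.7%), and in hepatocyte genes, at 1 of 19 (5.26%). Averaged over the 34 genes, the ND libraries read 73.9%, 72.8%, 74.5% and 74.1% and the NASH libraries 71.7%, 72.2%, 73.5% and 72.5%, so the groups overlapped at this level. Over all positions NASH 3 had the highest mean of any library, at 72.30%. The other NASH libraries read 71.02% to 71.36% there, and the ND libraries 71.12% to 72.27%. Without NASH 3, 62.8% of all spans were lower, and limma called 456 of all spans lower in place of 368. In the fit over all genes (limma, Benjamini-Hochberg adjustment, called at an adjusted p under 0.05) 2 members were called lower, Cd52 and Tcf7, where 2.53% of all spans were, and 1 was called higher, Prf1, where 5.42% were (7.95% in either direction). An unadjusted p under 0.05 was reached by 11 members (32.4%) and by 23.6% of all spans. Groups did not overlap, with NASH lower, for 5 members (Cd52, Tcf7, Cd2, Cd247 and Il2ra), which is 14.7% against 7.57% of all spans. They did not overlap with NASH higher for Prf1 and Cd28, which is 5.88% against 9.51%.

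By group, 10 of 13 T cell genes, 3 of 3 B cell genes, 3 of 5 cytotoxic genes, 6 of 6 SLAM receptors and 7 of 7 shared leukocyte genes had a lower NASH mean. The median differences were -1.34 points for T, -0.79 for B, -0.28 for cytotoxic, -1.58 for SLAM and -1.72 for shared genes. Members with a higher NASH mean were Prf1, Zap70, Cd28, Ctla4 and Fasl. With every exact 0 left out, Cd28, Ctla4 and Fasl had a lower NASH mean as well. Then 32 of the 34 members were lower, where 69.4% of all spans were, and only Prf1 and Zap70 were higher. The group counts for T and cytotoxic genes therefore depend on the zeros. T cell genes averaged 67.8% to 68.6% in the ND libraries and 67.3% to 68.1% in the NASH libraries, and these ranges overlapped. Shared leukocyte genes averaged 74.1% to 76.7% and 71.1% to 74.0%, just apart, and without Cd52 they averaged 72.5% to 75.01% and 71.5% to 73.7%, with overlap. The 6 SLAM genes lie in 1 cluster on chromosome 1, so they are not independent of each other.

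**Figure D2:**
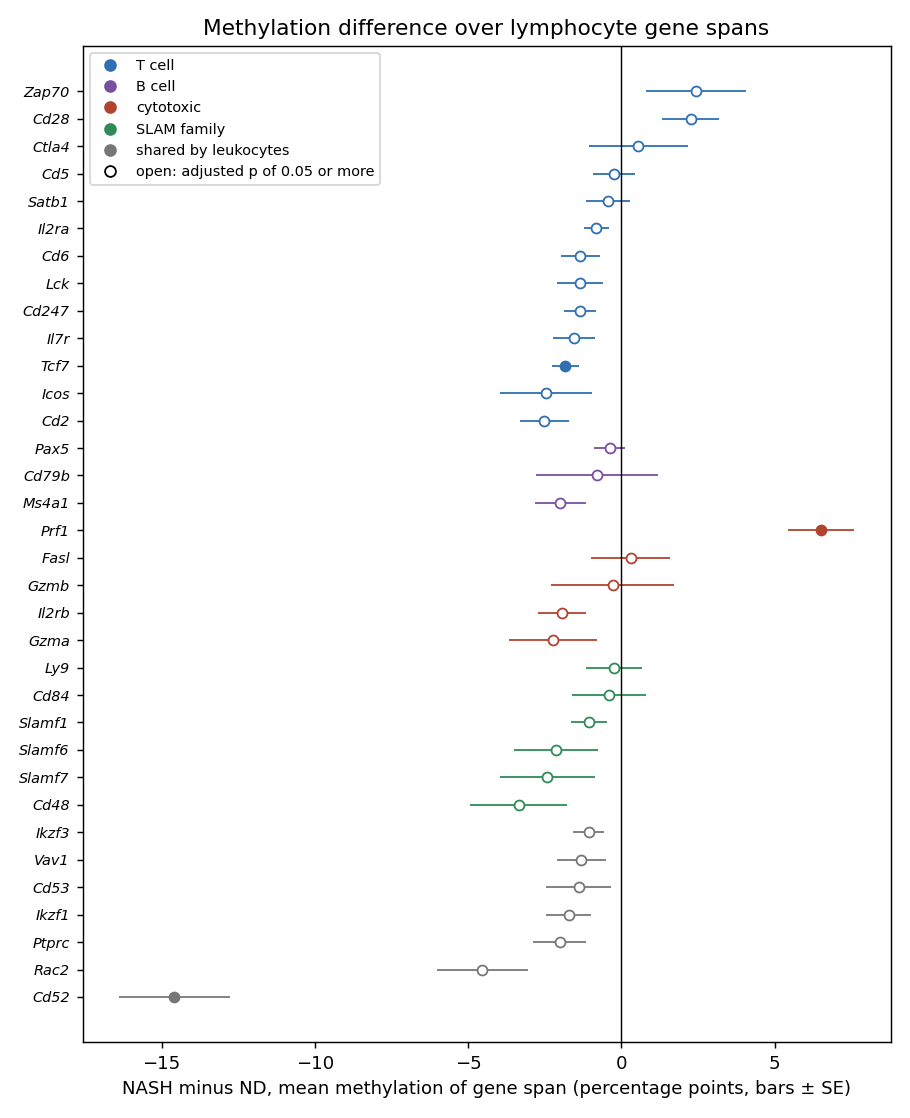
Difference in mean methylation of the gene span, NASH minus ND (horizontal axis, percentage points, bars ± SE from limma), for the 34 lymphocyte genes, grouped and coloured by role. Filled points are the 3 genes called at an adjusted p under 0.05, and Cd52 lies farthest left at -14.58.

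Cd52, which encodes a small glycoprotein anchored on the surface of lymphocytes and other leukocytes, had the largest span difference of the members. Its span (chr4:134093538-134095073, 46 positions) read 86.5%, 83.2%, 87.7% and 86.9% in ND and 71.7%, 71.0%, 76.0% and 67.3% in NASH. Every NASH library lay below every ND library. The difference was -14.58 points (SE 1.80, limma adjusted p = 0.00416). It was larger in the second part of the gene (22 positions, 79.3% ± 1.76 in ND and 57.9% ± 8.67 in NASH) than in the first (24 positions, 92.3% ± 4.69 and 84.0% ± 5.06), a split chosen after its values were seen. At the gene's high end the ND libraries read 75.3%, 83.8%, 82.9% and 84.1% and the NASH libraries 79.7%, 61.1%, 70.9% and 51.2%, which overlapped (-15.78 points, SE 5.43, adjusted p = 0.255). No other RefSeq gene lies within 1000 bases of Cd52.

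Prf1 went the other way. Its span (chr10:61297751-61304684, 198 positions) read 74.8%, 72.2%, 74.7% and 74.2% in ND and 77.7%, 82.4%, 81.6% and 80.2% in NASH, with no overlap (+6.52 points, SE 1.07, limma adjusted p = 0.0114). The difference was largest in 1 tile of 1000 bases, the third wholly inside the gene (chr10:61300001-61301000, 52 positions), where ND read 66.6%, 56.5%, 60.9% and 63.8% and NASH 73.7%, 84.3%, 87.8% and 79.6%. The next tile (6 positions) differed about as much the other way, at 81.7% ± 6.93 in ND and 63.4% ± 9.57 in NASH. Both tiles were chosen after their values were seen. Without the third tile alone, the gene (146 positions) stood at 78.3% ± 0.865 in ND and 80.2% ± 1.15 in NASH. The start end differed in the other direction, from 82.8% ± 1.996 in ND to 73.2% ± 9.19 in NASH (-9.58 points, SE 4.03, adjusted p = 0.365), and overlapped between groups. With every exact 0 left out, the span difference was 3.09 points and was no longer called (adjusted p = 0.132).

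**Figure D3:**
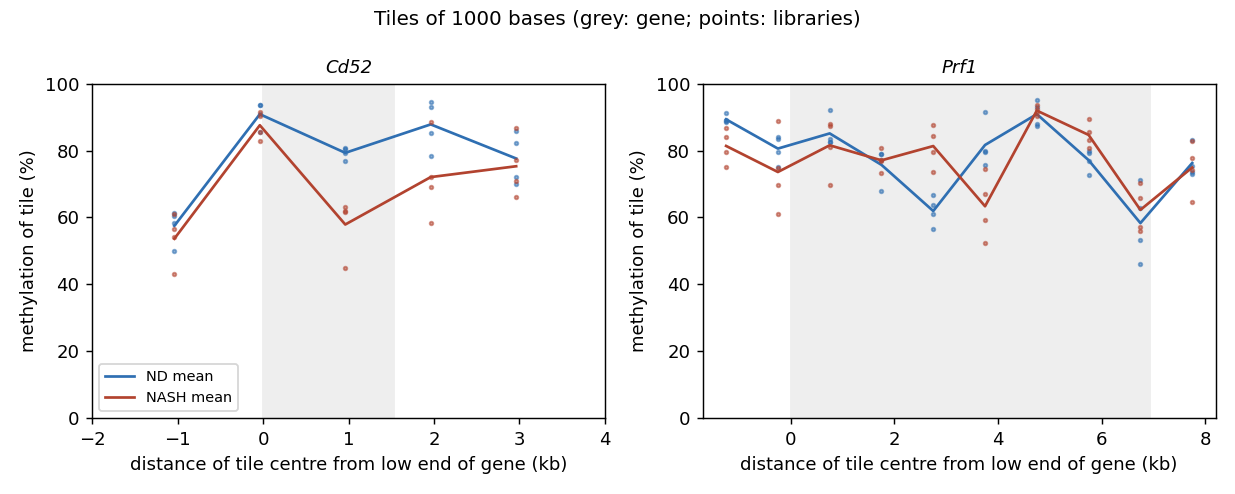
Methylation (vertical axis, percent) of 1000-base tiles along Cd52 and Prf1 against the distance of the tile centre from the low end of the gene (kb), points for single libraries and lines for group means, grey for the gene. In Prf1 the NASH line lies above the ND line at the third tile wholly inside the gene (81.3% and 61.9%) and below it at the next (63.4% and 81.7%), and in Cd52 it lies below at the tile over the second part of the gene (57.9% and 79.3%).

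Tcf7 encodes TCF-1, a nuclear factor of T cell development and memory. The span (chr11:52246527-52283383, 1070 positions) read 68.8%, 69.2%, 68.4% and 69.0% in ND and 67.4%, 67.5%, 66.1% and 67.1% in NASH. The groups did not overlap, though the difference was small (-1.82 points, SE 0.439, limma adjusted p = 0.0436). This call was lost when any 1 of the 8 libraries was left out (adjusted p from 0.0576 to 0.106). Part of the span is shared with the gene Skp1. Its 2 start tiles were low in both groups, at 1.89% ± 0.280 in ND and 1.78% ± 1.13 in NASH for the tile over the start.

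Cd2, an adhesion receptor of T and natural killer cells, was the other T cell gene closest to a call. Its span read 77.3%, 77.9%, 76.5% and 77.1% in ND and 72.8%, 73.9%, 76.4% and 75.7% in NASH, with ND 3 and NASH 3 almost level (-2.52 points, SE 0.80, adjusted p = 0.102). Its low end read 84.5%, 83.0%, 87.5% and 88.1% in ND and 76.5%, 80.0%, 82.5% and 74.3% in NASH, also without overlap (-7.46 points, SE 2.18, adjusted p = 0.174). Without NASH 3, the library with the highest mean over all positions, the Cd2 span was called (limma adjusted p = 0.0490). With zeros among highly methylated neighbours left out, the differences shrank to -1.13 points over the span (adjusted p = 0.507) and -4.32 at the low end (adjusted p = 0.448).

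Rac2, a small GTPase of blood cells, had the second-largest span difference among the lower members. It read 82.5%, 78.7%, 79.4% and 81.4% in ND and 75.1%, 75.8%, 79.9% and 73.2% in NASH (-4.53 points, SE 1.48, adjusted p = 0.110). NASH 3, the library with the highest mean over all positions, lay among the ND libraries. Without it the Rac2 difference was -5.84 points and called (limma adjusted p = 0.0299). With every 0 left out it was -2.93 points (adjusted p = 0.180).

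The 3 B cell genes differed little over their spans. Ms4a1 read 81.6%, 82.3%, 84.1% and 83.2% in ND and 81.5%, 82.4%, 79.9% and 79.3% in NASH (-1.99 points, SE 0.834, adjusted p = 0.198). Pax5, the longest member with 5090 positions, read 65.2%, 63.8%, 64.7% and 64.7% in ND and 63.9%, 63.5%, 65.1% and 64.3% in NASH (-0.38 points, SE 0.496, adjusted p = 0.700; -1.06 points with every 0 left out). Both pairs of groups overlapped. At the ends, Ms4a1 had 87.1%, 82.8%, 87.6% and 88.8% in ND against 81.0%, 82.5%, 82.7% and 76.0% in NASH at its high end, just without overlap (-6.02 points, SE 2.05, adjusted p = 0.252). Cd79b had 75.4%, 76.7%, 87.2% and 93.7% against 69.0%, 82.0%, 79.2% and 74.4% at its high end, with wide spread (-7.08 points, SE 4.40, adjusted p = 0.562). The Cd79b difference was -3.58 without ND 4, and with ends of 2000 bases either side it was -1.71, against -2.31 for Ms4a1.

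Among the other cytotoxic genes, Il2rb read 84.1%, 82.0%, 81.9% and 82.4% over its span in ND and 79.5%, 79.6%, 82.2% and 81.4% in NASH (-1.93 points, SE 0.798, adjusted p = 0.192). Its high end read 80.9%, 82.5%, 83.8% and 87.7% in ND and 77.7%, 79.8%, 81.0% and 78.7% in NASH (-4.43 points, SE 1.85, adjusted p = 0.358). The 2 groups overlapped in both. Fas ligand's start end, the most methylated start of the members, read 92.5%, 88.9%, 89.9% and 93.6% in ND and 83.4%, 81.9%, 88.5% and 88.8% in NASH, without overlap (-5.59 points, SE 1.94, adjusted p = 0.260). With ends of 2000 bases either side its difference turned to +1.23 points, and that of the Il2rb high end was -0.29. Gzma stood at 84.6% ± 1.998 in ND and 82.4% ± 2.53 in NASH, and Gzmb at 79.4% ± 3.01 and 79.1% ± 3.46, and neither was called.

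SLAM-family receptors are surface molecules by which leukocytes recognise each other, mostly through like binding like. Cd48, the ligand of the receptors CD2 and CD244, read 76.4%, 75.3%, 78.9% and 74.0% over its span in ND and 70.0%, 75.1%, 75.5% and 70.6% in NASH (-3.35 points, SE 1.58, adjusted p = 0.252). Its start end had the smallest p of all member ends, with 78.5%, 81.2%, 78.9% and 79.4% in ND and 65.8%, 66.5%, 74.4% and 65.5% in NASH. Every NASH library lay below every ND library (-11.41 points, SE 2.41, adjusted p = 0.0786), and the threshold was missed. With the end widened to 2000 bases on either side the difference was -3.98 points (adjusted p = 0.498). The 2 tiles at its start together read 76.2% ± 0.996 in ND and 59.4% ± 7.41 in NASH over 58 positions, a stretch chosen after its values were seen. Slamf1 read 78.6%, 79.5%, 79.7% and 79.9% over its span in ND and 77.6%, 77.8%, 79.9% and 78.2% in NASH (-1.05 points, SE 0.580, adjusted p = 0.328). Ly9 read 90.9%, 86.3%, 86.9% and 73.3% at its high end in ND and 61.9%, 73.5%, 80.1% and 65.0% in NASH, with overlap (-14.22 points, SE 4.73, adjusted p = 0.237), and -6.22 points apart with the wider end. The spans of Slamf6, Slamf7, Ly9 and Cd84 differed by -2.12, -2.42, -0.24 and -0.39 points, none called.

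**Figure D4:**
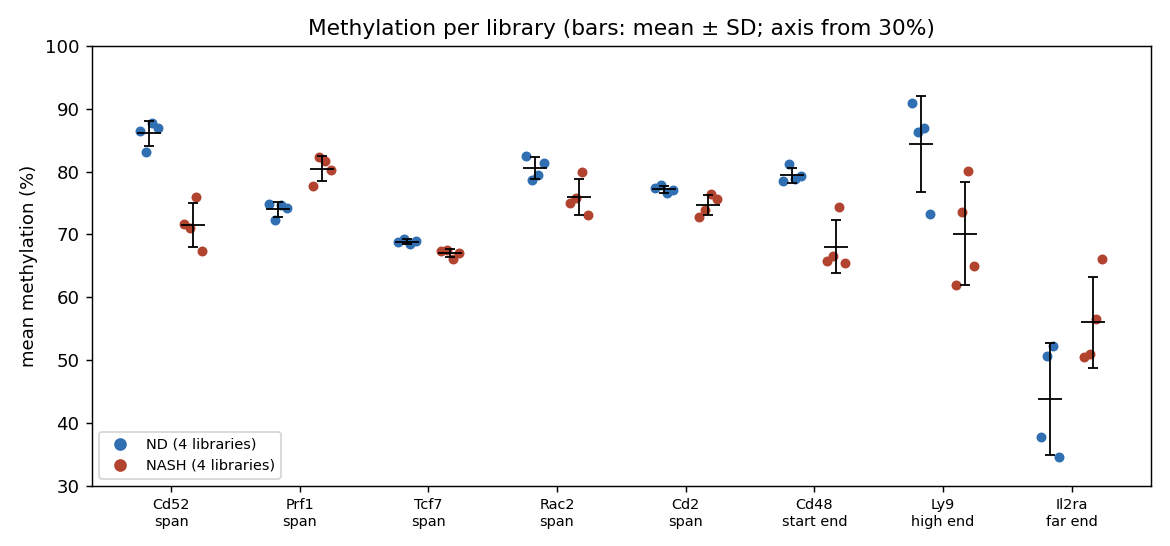
Mean methylation (vertical axis, percent, from 30) in each of the 4 ND and 4 NASH libraries for the spans of Cd52, Prf1, Tcf7, Rac2 and Cd2, the start end of Cd48, the high end of Ly9 and the far end of Il2ra, with group means ± SD. Groups are apart for Cd52, Prf1, Tcf7, Cd2 and Cd48 and overlap for Rac2, Ly9 and Il2ra.

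Over gene ends, 65 of the 68 member ends had the minimum of 6 positions (Slamf1 high, Gzmb low and Cd53 low did not). The NASH mean was lower at 45 of them, with a median of -1.98 points, where 54.5% of all 28753 ends were lower and the median was -0.22. None was called by limma, where 0.31% of all ends were (0.233% higher and 0.0765% lower). At an unadjusted p under 0.05 in either direction there were 15 member ends (23.1%), against 12.6% of all ends. Of the 15, 14 were lower, and this split was not counted over all ends. In 5 ends the groups did not overlap with NASH lower (7.69% against 4.06% of all ends): Cd48 and Fasl at their starts, Cd2 low, Ms4a1 high and Ikzf3 high. There was none with NASH higher, against 4.31% of all. With ends reaching 2000 bases to either side, 1 member end was called higher (Il2ra high, +13.68 points), where 2.12% of all ends were, and 3 lower (both ends of Cd52 and the start of Il7r), where 0.936% were. Cd52 is 1536 bases long, so both of its widened ends hold the whole called span and are not separate results. The medians were -0.55 points for T, -2.05 for B, -2.57 for cytotoxic, -3.35 for SLAM and -5.18 for shared genes. Where the strand was known, 23 start ends had a median of -2.57 and 20 far ends of -0.31.

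Of the ends with a higher NASH mean, only that of Il2ra, the alpha chain of the interleukin 2 receptor, had an unadjusted p under 0.05. Its far end read 37.8%, 50.7%, 52.2% and 34.6% in ND and 50.5%, 50.9%, 56.5% and 66.1% in NASH, with overlap (+12.17 points, SE 4.95, adjusted p = 0.345). The tile beyond that end, at chr2:11694001-11695000, read 25.1% ± 7.38 in ND and 52.7% ± 8.76 in NASH over 14 positions (SE 4.90, adjusted p = 0.0905). It was chosen after its values were seen, as the tile with the highest difference of all member tiles. The RefSeq genes Gm39759 and Gm39760 lie within 1000 bases of Il2ra.

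Shared leukocyte genes were lower in NASH in all 7 cases over their spans. Ptprc, which encodes the CD45 phosphatase of all blood leukocytes, stood at 76.2% ± 1.55 in ND and 74.2% ± 1.05 in NASH, and Cd53, a tetraspanin, at 74.2% ± 2.02 and 72.8% ± 1.25. Vav1, an exchange factor for Rac proteins, stood at 77.4% ± 1.16 and 76.1% ± 1.25. None of these was called. Ikzf3, a zinc finger factor of B cell maturation, read 83.6%, 84.3%, 80.2% and 82.1% at its low end in ND and 75.2%, 76.5%, 81.4% and 76.3% in NASH (-5.18 points, SE 1.92, adjusted p = 0.290; -3.22 points with the wider end), with NASH 3 among the ND values. Its high end was unmethylated in both groups, at 8.54% ± 1.52 in ND and 6.60% ± 0.561 in NASH over 162 positions.

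Ikzf1, which encodes the lymphoid factor Ikaros, combined an unmethylated start with a neighbouring stretch that differed. The 2 tiles at its start (376 positions) read 4.62% ± 2.81 in ND and 5.09% ± 2.42 in NASH. The next 5 tiles (chr11:11687001-11692000, 118 positions) read 80.7%, 73.8%, 80.0% and 80.1% in ND and 63.2%, 67.4%, 66.1% and 60.4% in NASH. Groups did not overlap, and the difference was -14.39 points. This stretch was chosen after its values were seen, and none of its tiles was called (adjusted p from 0.163 to 0.201). The whole span of 1784 positions differed by -1.72 points.

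**Figure D5:**
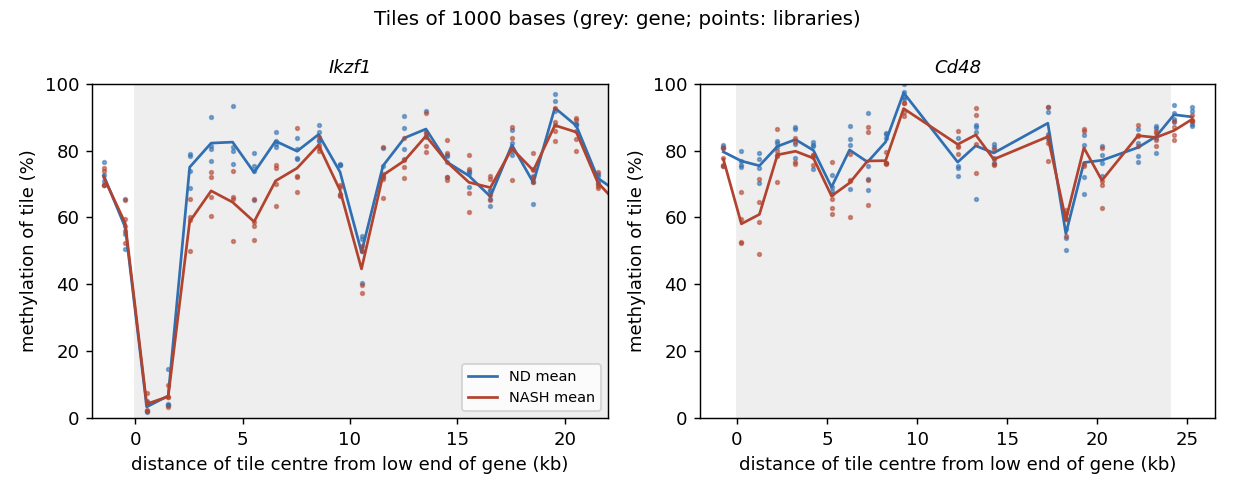
Methylation (vertical axis, percent) of 1000-base tiles in the first part of Ikzf1 and along Cd48 against the distance of the tile centre from the low end of the gene (kb), points for single libraries, lines for group means, grey for the gene. In Ikzf1 both lines drop at the start (4.62% in ND, 5.09% in NASH) and part in the 5 tiles after it (78.7% and 64.3%), and in Cd48 they part at the start (76.2% and 59.4%).

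Tiles of 1000 bases placed the differences within the genes. The members and their flanks held 1330 tiles with at least 6 positions, of which 800 (60.2%) had a lower NASH mean, close to the 58.2% of all tiles. None was called by limma, as in the whole table (0.0%), and 146 (10.98%) had an unadjusted p under 0.05 against 10.6% of all tiles. Of those 146, 114 were lower in NASH, and this split was not counted over all tiles. Groups did not overlap with NASH lower in 70 member tiles (5.26% against 3.73%) and with NASH higher in 28 (2.11% against 2.81%). With every exact 0 left out, 5 member tiles were called lower, in Cd28, Cd247, Il7r, Cd53 and Cd52, where 0.0609% of all tiles were.

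The smallest p belonged to Il7r, the interleukin 7 receptor that keeps naive T cells alive. Its tile at chr15:9528001-9529000 (14 positions) read 86.6%, 89.2%, 89.5% and 87.7% in ND and 71.1%, 71.2%, 68.9% and 65.5% in NASH (-19.07 points, SE 2.49, adjusted p = 0.0652). In Icos, a costimulator of activated T cells, a tile of 14 positions read 93.1% ± 4.71 in ND and 71.2% ± 3.20 in NASH (-21.90 points, adjusted p = 0.0655). In Cd247 a tile of 24 positions read 91.6% ± 1.66 and 76.9% ± 4.39 (-14.72 points, adjusted p = 0.0866). All 3 fell short of the threshold, and in each of them every NASH library lay below every ND library.

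Stretches under 20% methylation were found in 10 of the 34 genes, in 33 tiles (2.48% of tested member tiles). The share over all tiles was 3.39%, but it also counts the 11980 tiles without spread that were left out of the fits. The member share leaves such tiles out, so these shares are not fully like for like. On the member side few tiles are concerned, as 1330 were tested without them and 1332 with them. The low tiles belonged to 7 T cell genes, to Pax5 with 9 tiles, and to Ikzf1 and Ikzf3, and to no cytotoxic or SLAM gene. The CpG-dense ones lay in Satb1 (7 tiles, lowest 0.991%), Tcf7, Ikzf1, Ikzf3, Pax5, Lck and Cd247, and differed little between diets. Lck's tile of 92 positions, 17.1 kb inside the gene from its start, read 2.07% ± 0.885 in ND and 2.31% ± 1.03 in NASH.

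Low values of the neighbouring genes Cd28, Ctla4 and Icos could not be read as unmethylated DNA. Positions listed at exactly 0 in all 8 libraries made up 25.1% of Cd28, 53.3% of Ctla4 and 7.88% of Icos, where 18 of the 34 members had none and the table as a whole had 6.61%. Icos lay below Satb1 (17.6%), Tcf7 (16.0%), Ikzf1 (8.97%) and Lck (8.0%). The share alone does not tell unread positions from unmethylated DNA. An exact 0 can stand for a position without reads, and the table holds no depth. In 25-kb bins along chromosome 1 such positions were 0 to 0.966% in the 3 bins from 60600001 to 60675000 and reached 40.8% in 1 bin of the stretch that follows. With zeros left out, Cd28 stood at 90.0% in ND and 89.8% in NASH, Ctla4 at 85.5% and 84.1%, and Icos at 87.3% and 86.2%, in place of 53.0% and 55.3%, 26.1% and 26.6%, and 66.4% and 64.0%. The higher NASH means of Cd28 and Ctla4 were thereby turned to lower ones, as was that of the Fasl span (83.4% in ND and 82.5% in NASH without zeros).

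The remaining spans did not differ beyond the test. Zap70 had a higher NASH mean by 2.44 points (SE 1.62, adjusted p = 0.421), and with every 0 left out it stood at 79.6% in ND and 79.8% in NASH. The T cell genes Cd247, Il7r, Lck, Cd6, Il2ra, Satb1 and Cd5 differed by -1.35, -1.55, -1.34, -1.34, -0.81, -0.43 and -0.24 points, and Cd79b by -0.79. Of these, Cd247 and Il2ra had groups that did not overlap, with adjusted p of 0.158 and 0.288.

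A second list of 60 lymphocyte genes was read from the same fits. Of 59 with a tested span, 49 had a lower NASH mean (median -0.71 points, against 58.3% of all spans), 6 were called lower and none higher, where 2.53% and 5.42% of all spans were. Among the called genes were Cytip, Tnfrsf18, Cd40 and Ccr7. Ccr7, a chemokine receptor that guides lymphocytes to lymph nodes, stood at 79.0% ± 1.56 in ND and 74.7% ± 1.73 in NASH (-4.32 points, adjusted p = 0.0449). Cytip, an adhesion regulator of lymphoid cells, stood at 81.0% ± 0.802 and 76.1% ± 0.729 (-4.90 points, adjusted p = 0.00350). Of the list's 118 ends limma called none (0.31% of all ends), and 20 had an unadjusted p under 0.05 (12.6% of all ends).

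Genes of other liver cell types differed as well. Of 19 hepatocyte genes with a tested span, 16 were called higher in NASH (5.42% of all spans were; median +7.79 points), and their mean ranged over 37.9% to 38.5% in the ND libraries and 45.9% to 50.1% in the NASH libraries. Called lower, as were 2.53% of all spans, were 1 of 14 macrophage genes (68.3% to 69.2% in NASH, 70.5% to 71.5% in ND), 3 of 12 neutrophil genes (69.6% to 70.7%, 71.8% to 74.7%) and 1 of 13 stellate cell genes (63.5% to 66.2%, 64.5% to 66.5%). By limma none of 9 endothelial and 9 cholangiocyte genes was called, with 4 and 0 at an unadjusted p under 0.05. The part of these cell types in the differences of the lymphocyte genes was not tested.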

How the data were processed

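The deposited table gives percent methylation per CpG cytosine in 8 libraries, each strand on its own row, without read counts, so depth is unknown and no interval could be formed. The submitters' processing notes name mm10 and FastQC; the aligner and the caller were not named there or in the labels. The table was read for chromosomes 1 to 4, 5 up to 117098872, and 10 to 19 (30729668 positions). Another 326824 positions on 85 contigs and 1 incomplete line were not used. All 512388 CG bases of RefSeq promoters on these chromosomes were listed at their 1-based position plus 1 and 55.1% at the position itself, so 1 was subtracted.

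Levels were averaged without weights over spans, ends and 1000-base tiles with at least 6 positions. NASH was compared with ND by limma 3.58.1 in R 4.3.3 with a mean-dependent prior, Benjamini-Hochberg adjusted over all regions of a kind. Regions without residual spread between libraries (83 spans, 371 ends, 11980 tiles) were left out of the fits, a departure from the planned filter made after the first results were seen. Promoters, low tiles (mean under 20%) and list counts are descriptions. Strands came from the promoter table for 23 members. The fit was also run on simulated spans with independent noise, which cannot speak to the zeros or to dependence between neighbouring genes. Every member is reported. Values per library are given for called members and, in each gene group, for the 2 smallest p over spans and over ends. The members and lists were chosen with earlier results of these data known. Alternatives covered zeros, minimum positions, the prior, the logit scale, a replicate block, the end size and leaving out each library. Some called genes of the second lymphocyte list are counted but not reported by name here.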

Additional observations from a re-analysis of the deposited data

Results flagged for a closer look

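In 2 of the 40 groups of 4 libraries looked at, 1 library stood far from the other 3, by a criterion that chance meets in about 1 of 20 groups. At the start end of Cd48, NASH 3 read 74.4% where the other NASH libraries read 65.5% to 66.5%. At the high end of Cd52, ND 1 read 75.3% where the other ND libraries read 82.9% to 84.1%.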

How the results depend on the processing

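Of the 3 called member spans, 1 remained (Cd52) without any zero and with the replicate block, where Prf1 had an adjusted p of 0.0635 and Tcf7 of 0.0792 by limma; leaving out 1 library gave 2 to 4. Member ends went from 0 calls to 4 with ends of 2000 bases either side, where 2.12% of all ends were called higher and 0.936% lower. The calls were both ends of Cd52, each holding its whole called span, Il7r at its start, and Il2ra high, which rose. For member ends, leaving out 1 library gave 0 to 0. Member tiles went from 0 to 5 without any zero, to 1 with at least 20 positions and to 2 without the mean-dependent prior (1701 of 1504755, 1551 of 548221 and 1951 of 1597846 in the whole table), and leaving out 1 library gave 0 to 0. The Fasl high end turned to 1.23 points with the longer ends. The causes were not tested. Keeping regions without spread, added after seeing the data and as the plan had it, gave the same member counts of 3, 0 and 0, but 3 called ends in the whole table in place of 89 and 1214 called spans in place of 1156. With 1 library left out the whole table had 2 to 17 called ends, and 0 with the replicate block or without any zero. The count of ends rose to 270 without the mean-dependent prior and to 279 on the logit scale. The Cd52 span was called under every setting tried. Of 34 spans, 27 to 32 were lower under every setting. Same-numbered libraries did not deviate together (correlations -0.0243, 0.0007, 0.0736 and 0.0231), so the numbers were not taken as pairs. Depth is unknown, so the precision of single values is too.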
